A study of Mus musculus with 9 samples.

Results

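The podocyte genes Nphs1, Podxl, Synpo, Wt1, Ptpro, Magi2, Cd2ap and Kirrel were followed through RNA-seq of whole mouse kidneys at E15.5. The 8 genes were found by their symbols, and each is 1 of the 24138 loci in the deposited table. RNA came from 9 kidneys, 3 of each of 3 genotypes, collected from separate crosses. MUT kidneys were Foxd1GC/+;Ntn1fl/fl, so that Ntn1, which encodes the secreted guidance cue netrin 1, could be deleted from both alleles. HET kidneys were Foxd1GC/+;Ntn1fl/+ and could lose 1 allele, and WT kidneys were Ntn1fl/fl without Cre. All 3 genotypes thus carried at least 1 floxed Ntn1 allele. MUT and HET kidneys also carried a GFP-Cre knock-in that replaces 1 Foxd1 allele and acts in Foxd1+ stromal progenitors and their descendants. Podocytes arise from nephron progenitors instead, so they are not the main population in which this Cre driver acts. The libraries came from embryos of both sexes, and each is named here by its genotype and number, for example MUT-3. Values per kidney are given in the order of these numbers.

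Podocytes are the epithelial cells that wrap the glomerular capillaries with interlocking foot processes. Neighbouring foot processes are joined by the slit diaphragm, a cell junction through which the blood is filtered. At this stage of kidney development glomeruli of all ages are present side by side, from newly specified podocyte precursors to capillary loops. In whole-kidney RNA, fewer podocytes and less RNA per podocyte cannot be told apart. Wt1 is also made by nephron progenitors and early nephrons, Podxl by endothelium, and Cd2ap in many cell types.

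On mm10, Nphs1 (XLOC_018624 in the table) lies at chr7:30460058-30488609 on the plus strand, Kirrel (XLOC_013828) at chr3:87078592-87174747 on the minus strand, Cd2ap (XLOC_009476) at chr17:42792951-42876424 on the minus strand and Magi2 (XLOC_015684) at chr5:19227046-20704792 on the plus strand. Podxl (XLOC_017751) lies at chr6:31519493-31563937 on the minus strand, Ptpro (XLOC_017619) at chr6:137252299-137464633 on the plus strand and Wt1 (XLOC_011576) at chr2:105126529-105173614 on the plus strand. These loci, and that of Synpo given with its values, each overlap the protein-coding gene of that name in GENCODE M21.

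The 250 bases before the start of transcription are shown for 4 of these genes. Wt1, itself a member of the group, encodes a zinc-finger transcription factor, and its part in the values was not tested. RefSeq (GRCm38.p6) gave promoter entries for 5 of the 8 genes, and in these 4 the start site coincides with the edge of the deposited locus. Capitals mark the letters GNGTGGGNG, a Wt1-type motif, searched on both strands.
Nphs1, chr7:30459808-30460057, plus strand: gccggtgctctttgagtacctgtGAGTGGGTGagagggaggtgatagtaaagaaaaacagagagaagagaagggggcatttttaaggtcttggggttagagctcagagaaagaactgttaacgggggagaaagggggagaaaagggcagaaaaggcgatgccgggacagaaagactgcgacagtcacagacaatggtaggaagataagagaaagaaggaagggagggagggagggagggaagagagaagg
Ptpro, chr6:137252049-137252298, plus strand: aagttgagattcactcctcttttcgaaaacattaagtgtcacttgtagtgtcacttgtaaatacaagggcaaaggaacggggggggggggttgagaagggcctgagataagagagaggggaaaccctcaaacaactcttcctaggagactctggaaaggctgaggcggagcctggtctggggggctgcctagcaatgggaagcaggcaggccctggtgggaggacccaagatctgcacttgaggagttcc
Magi2, chr5:19226796-19227045, plus strand: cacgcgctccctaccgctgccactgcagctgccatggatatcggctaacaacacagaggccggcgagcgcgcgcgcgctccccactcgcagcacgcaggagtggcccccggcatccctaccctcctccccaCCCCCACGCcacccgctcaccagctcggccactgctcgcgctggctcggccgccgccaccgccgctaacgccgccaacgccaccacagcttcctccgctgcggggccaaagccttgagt
Cd2ap, chr17:42876425-42876674, minus strand: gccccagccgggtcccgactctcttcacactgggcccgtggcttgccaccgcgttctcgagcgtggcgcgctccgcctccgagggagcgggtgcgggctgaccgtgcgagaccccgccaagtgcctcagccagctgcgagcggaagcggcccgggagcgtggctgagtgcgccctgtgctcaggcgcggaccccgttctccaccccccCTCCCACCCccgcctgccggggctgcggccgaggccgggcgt
The Wt1-type letters occurred 1 time each in the Nphs1, Magi2 and Cd2ap windows and 0 times in the Ptpro window. They began at position -227 relative to the start site in Nphs1, -119 in Magi2 and -42 in Cd2ap, the latter 2 on the opposite strand. Of 32851 promoters of the same length, 12.7% held them. The homeobox-type letters TAATTA, present in 4.84% of promoters, were found 0 times in these 4 windows. E box letters CANNTG, present in 66.2% of promoters, were found 3 times in Ptpro, 2 times in Cd2ap, 1 time in Magi2 and 0 times in Nphs1, and shared 0 bases with a Wt1-type match. Entries away from the locus edge were searched too and are not shown. A second Magi2 entry, 680472 bases from the edge, held 1 TAATTA, 1 E box and 0 Wt1-type matches. The Kirrel entry, 210 bases from the edge, held 0 of each. These matches describe letters and say nothing of binding.

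Ntn1, the targeted gene, and Foxd1, which carries the Cre, were read in every library. Ntn1 was 24.3±5.75 FPKM in WT, 13.6±2.53 in HET and 12.8±3.22 in MUT kidneys (mean±s.d., n=3 kidneys each). The single values were 12.3, 12.0 and 16.5 FPKM in HET and 10.8, 16.5 and 11.0 in MUT kidneys, so that Ntn1 levels separated WT kidneys from both but did not tell MUT from HET kidneys. Foxd1, which has 1 working allele in MUT and HET kidneys, was 31.0±4.46 FPKM in WT, 21.1±0.801 in HET and 23.9±1.22 in MUT kidneys. FPKM scales fragments by transcript length and by the mapped fragments of the library, and the number of fragments behind each library is unknown. A rough relative depth was taken from the most frequent ratio to WT-1 over loci of very low FPKM. It was 0.570 of WT-1 in WT-2, 0.611 in MUT-3 and 0.901 to 1.27 in the other 6 libraries. Summed over 6 liver genes, HET-2 held 706 FPKM, against 26.9 to 51.6 in the other 8 libraries, and Alb was 244 FPKM there. Summed over 5 skeletal muscle genes, HET-3 held 186 FPKM, against 7.19 to 19.4 in the other 8 libraries. No marker of either list was at 0 in any library.

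The 8 genes spanned a wide range of levels. By mean FPKM, a scale per length of transcript, over the 9 libraries, Wt1 was highest (62.8 FPKM), followed by Podxl (52.0), Cd2ap (31.2), Kirrel (16.2), Synpo (10.4), Ptpro (5.76), Nphs1 (3.96) and Magi2 (1.10). Wt1 exceeded Podxl in 7 of 9 libraries, and these neighbours did not differ beyond their spread. Every other neighbour pair kept its order in 9 of 9 libraries, although only Cd2ap and Kirrel, and Nphs1 and Magi2, had ranges that did not overlap.

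Nphs1, which encodes nephrin, the adhesion protein that spans the slit diaphragm, was 7.05, 2.91 and 3.94 FPKM in the 3 WT kidneys, 2.94, 3.82 and 1.92 in the HET kidneys and 4.92, 5.998 and 2.12 in the MUT kidneys. The genotypes overlapped, with WT-1 highest, MUT-2 next and HET-3 and MUT-3 lowest. Within MUT kidneys alone, the highest value was 2.84 times the lowest. Nphs1 stayed under the minimum of 5 FPKM in every genotype mean (4.63±2.16 in WT, 2.90±0.951 in HET and 4.35±2.00 in MUT) and was not part of the main test.

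Kirrel, which encodes Neph1, a partner of nephrin in the junction, was 20.9, 15.4 and 13.4 FPKM in the 3 WT kidneys, 13.3, 14.3 and 14.3 in the HET kidneys and 20.8, 17.9 and 15.1 in the MUT kidneys. The 3 MUT values lay above the 3 HET values, and both ranges overlapped that of WT kidneys. HET kidneys were tightly grouped at 13.96±0.557 FPKM, against 17.9±2.85 in MUT and 16.6±3.88 in WT.

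Cd2ap, an adaptor that ties the slit diaphragm to actin, was 35.2, 25.3 and 38.1 FPKM in the 3 WT kidneys, 25.2, 26.5 and 35.1 in the HET kidneys and 35.5, 32.3 and 27.3 in the MUT kidneys. It departed from the other genes, being highest in WT-3 and high in HET-3. Magi2, a scaffold protein of the junction, was the lowest gene, at 1.46, 1.03 and 1.08 FPKM in the 3 WT kidneys, 0.884, 1.05 and 0.864 in the HET kidneys and 1.15, 1.37 and 0.966 in the MUT kidneys. Its genotypes overlapped, with WT-1 highest and HET-3 lowest, and it was also under the FPKM minimum.

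Podxl, which encodes podocalyxin, the charged sialomucin of the apical surface, was 71.0, 45.3 and 51.1 FPKM in the 3 WT kidneys, 43.9, 52.7 and 39.0 in the HET kidneys and 60.2, 67.3 and 37.1 in the MUT kidneys. MUT kidneys held both the second highest and the lowest of the 9 values. Ptpro, a receptor tyrosine phosphatase of the same surface, was 7.82, 4.59 and 4.97 FPKM in the 3 WT kidneys, 5.65, 6.68 and 3.37 in the HET kidneys and 6.53, 8.68 and 3.55 in the MUT kidneys. It was the only gene of the 8 with its highest value in MUT-2.

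Synpo, which encodes synaptopodin, an actin-associated protein of foot processes, was 15.9, 8.07 and 9.60 FPKM in the 3 WT kidneys, 8.47, 9.62 and 6.47 in the HET kidneys and 12.8, 15.4 and 7.002 in the MUT kidneys. On mm10 it (XLOC_010147) lies at chr18:60593990-60624305 on the minus strand. MUT-1 and MUT-2 lay above every HET value, whereas MUT-3 lay below HET-1 and HET-2. Wt1 was 76.0, 61.2 and 50.1 FPKM in the 3 WT kidneys, 63.4, 61.8 and 54.9 in the HET kidneys and 75.0, 60.2 and 62.5 in the MUT kidneys. WT kidneys held both its highest and its lowest value.

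**Figure D1:**
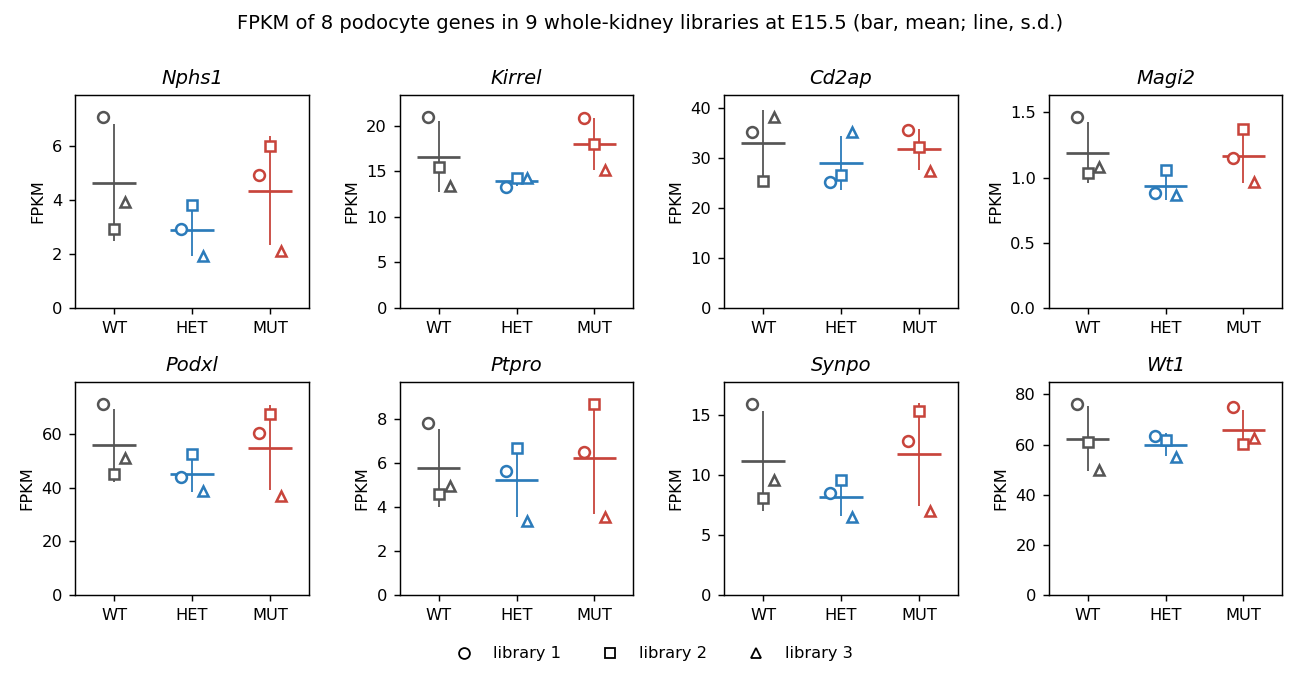
FPKM (y axes, from 0) of the 8 podocyte genes in WT, HET and MUT kidneys. Symbols are single libraries, bars are means and vertical lines are s.d. of 3 kidneys. Kirrel is the gene whose 3 MUT values all lie above its 3 HET values.

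The comparison of MUT with HET kidneys asks about loss of the second Ntn1 allele where both carry the Foxd1 knock-in. All 6 podocyte genes above the FPKM minimum had higher fitted means in MUT kidneys, but none passed the test. On the log2(FPKM + 1) scale, which understates changes of low genes, Synpo was 0.42 higher (s.e. 0.14, 95% confidence interval 0.11 to 0.74) and Kirrel 0.33 higher (s.e. 0.13, interval 0.04 to 0.62). Without the replicate block, the interval was -0.09 to 0.94 for Synpo, which includes 0, and 0.06 to 0.60 for Kirrel. Podxl differed by 0.24, Ptpro by 0.19, Cd2ap by 0.13 and Wt1 by 0.13, with intervals that included 0. The adjusted p was 0.933 to 0.939 for the 6 genes (limma with a replicate block, Benjamini-Hochberg over 10081 loci). Of all loci tested, 0% were called, with 494 at an unadjusted p under 0.05, and 0 of the 6 genes were called. Without the replicate block 0 loci were called as well, with 636 at an unadjusted p under 0.05.

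Kirrel was the 1 gene of the 6 with every MUT library above every HET library, a pattern found in 5.19% of the loci tested. Its exact two-sided permutation p was 0.1, which is the smallest that 3 kidneys against 3 can give, and 24 such tests were made. The exact p was 0.3 for Synpo and 0.5 or 0.6 for the other 4. In the fit with a minimum of 1 FPKM, Nphs1 was 0.41 higher (s.e. 0.15, limma adjusted p 0.935) and Magi2 0.16 higher (s.e. 0.14, limma adjusted p 0.935). That fit was run with the replicate block only. The exact permutation p, which uses no block, was 0.4 for Nphs1 and 0.2 for Magi2. Comparing same-numbered kidneys, the MUT value was higher in 3 of 3 pairs for Nphs1, Synpo, Ptpro, Magi2 and Kirrel. It was higher in 2 of 3 for Podxl, Wt1 and Cd2ap. The numbers are not shown to pair kidneys, and the share of all loci with 3 of 3 was not computed. MUT and HET values overlapped for each of these genes except Kirrel. The ratio of mean FPKM ran from 1.10 for Cd2ap and Wt1 to 1.501 for Nphs1.

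The median difference of the 6 genes was 0.22, beside -0.02 for all loci, of which 45.9% were above 0. For the same 6 genes it was 0.17 without the kidneys numbered 1, 0.20 without those numbered 2 and 0.39 without those numbered 3. In fits without the block, added after seeing the data, it was 0.35 without HET-2, the library with the liver markers. Without HET-3, the library with the muscle markers, it was 0.21, and Ptpro was -0.05. The part of these markers in the differences was not tested.

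The comparison of MUT with WT kidneys differs both in Ntn1 and in the Foxd1 knock-in. Here 4 of the 6 genes had a fitted difference above 0 and 2 below, and the differences were small beside the spread within genotypes. Kirrel differed by 0.12 (s.e. 0.09), Wt1 by 0.09 (s.e. 0.11), Ptpro by 0.06 (s.e. 0.23), Synpo by 0.05 (s.e. 0.24), Cd2ap by -0.04 (s.e. 0.16) and Podxl by -0.04 (s.e. 0.19). The intervals were wide, from -0.53 to 0.63 for Synpo, so that similar levels were not shown. The limma adjusted p was 0.995 or 0.996 for each, and 0% of 10096 loci were called, with 201 at an unadjusted p under 0.05. The median of the 6 genes was 0.06, beside -0.0035 for all loci, of which 48.7% were above 0. For the same 6 genes it was 0.16 without the kidneys numbered 1, -0.27 without those numbered 2, where MUT-2 is high and WT-2 low, and 0.17 without those numbered 3.

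HET kidneys were compared with WT kidneys to see the Foxd1 knock-in together with loss of 1 Ntn1 allele. All 6 genes had lower fitted means in HET kidneys, but none passed the test. Synpo differed by -0.37 (s.e. 0.18), Podxl by -0.28 (s.e. 0.17), Kirrel by -0.21 (s.e. 0.14), Cd2ap by -0.17 (s.e. 0.12), Ptpro by -0.13 (s.e. 0.20) and Wt1 by -0.04 (s.e. 0.12). Nphs1, in the fit with a minimum of 1 FPKM, differed by -0.49 (s.e. 0.25). The limma adjusted p was 0.994 for the 6 genes, and 0% of 10105 loci were called, with 233 at an unadjusted p under 0.05. The median was -0.19, beside 0.01 for all loci, of which 52.4% were above 0. For the same 6 genes it was -0.02 without the kidneys numbered 1, which include WT-1, and -0.36 without those numbered 2. The 3 comparisons share libraries, so the direction in MUT against HET and that in HET against WT are not independent. These p-values rest on the spread between kidneys that is left once the replicate number is fitted, moderated over all loci tested.

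**Figure D2:**
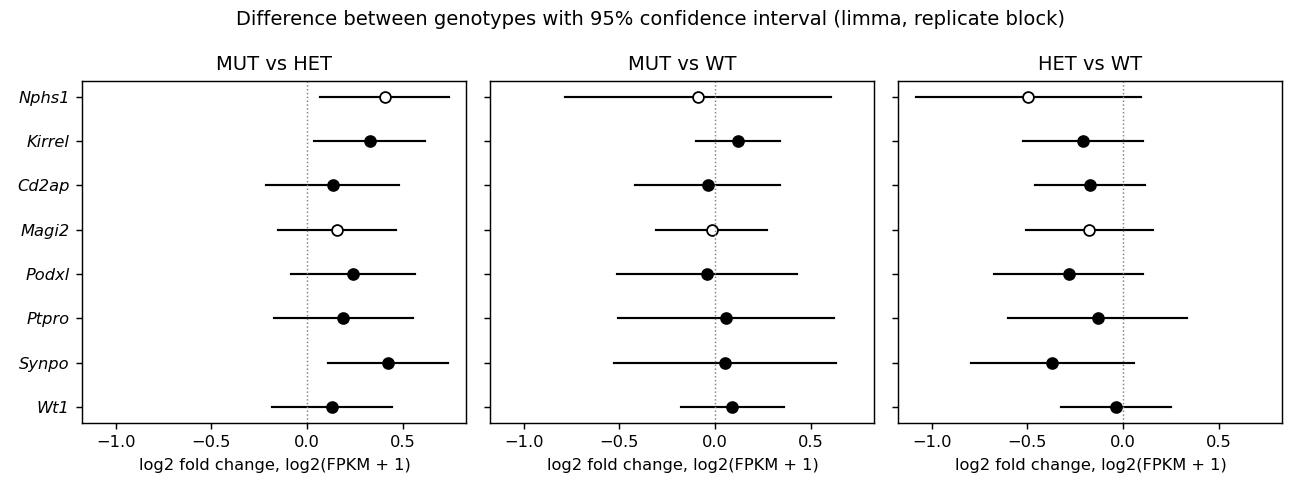
Fitted log2 fold changes (x axes, log2(FPKM + 1) scale) of the 8 podocyte genes in 3 comparisons, with 95% confidence intervals from limma with the replicate block. Open circles mark Nphs1 and Magi2, which come from the fit with a minimum of 1 FPKM. In MUT against HET kidneys the intervals of Synpo, Kirrel and Nphs1 lie above 0 before adjustment for the number of loci. That of Synpo includes 0 without the block, and Nphs1 was not fitted without the block.

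Most of the variation in these genes lay between kidneys of the same genotype. WT-1 was the highest library for 6 of the 8 genes and among the 3 highest for 8 of 8. MUT-1 was among the 3 highest for 7 genes and MUT-2 for 6. HET-3 was among the 3 lowest for 6 genes and MUT-3 for 5. The mean z-score of the 8 genes was 1.39, -0.50 and -0.21 in WT kidneys. It was -0.59, -0.13 and -0.90 in HET kidneys and 0.85, 0.90 and -0.82 in MUT kidneys. WT and MUT kidneys therefore lay on both sides of 0, and HET kidneys below it. Genotype accounted for 4.45% of the variance of Ptpro at the lowest and 37.6% of that of Magi2 at the highest, beside a median of 18.2% over 12915 loci averaging at least 1 FPKM.

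The spread within genotypes was wide, beside that of other loci, for Nphs1, Ptpro, Synpo and Podxl. The s.d. of log2(FPKM + 1) within genotypes was 0.51 for Nphs1, which placed it at percentile 98.6 of these loci. Ptpro stood at percentile 98.2, Synpo at 98.03 and Podxl at 96.0. Cd2ap stood at 86.5, Kirrel at 78.6 and Wt1 at 72.9, and Magi2, whose low level compresses this scale, at 26.4.

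The profile over the kidneys was shared to differing degrees. The correlation of each gene with the mean z-score of the other 7 over the 9 libraries was r=0.97 for Synpo, 0.96 for Podxl, 0.96 for Nphs1, 0.92 for Magi2, 0.82 for Kirrel and 0.82 for Ptpro. Wt1 (r=0.53) and Cd2ap (r=0.34) followed it less closely. These values describe 9 libraries that share genotype and depth differences, and the genes were measured in the same libraries. By the rough relative depth, WT-2 and MUT-3, which are low in the profile, were the 2 shallowest libraries, whereas HET-3, also low, was at 1.06. The part of depth in the profile was not tested.

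The 10 other loci most like the mean profile of the 8 genes, of 10158 that averaged at least 5 FPKM in some genotype, were Pde8a, Trabd2b, Wwc1, Thbs1, Card10, the joined locus of 6530402F18Rik and Ntng2, Sema3g, Tyk2, Dab1 and Esrrg. Their r ranged from 0.97 to 0.98 over the 9 libraries. Pde8a, a cyclic nucleotide phosphodiesterase, was 7.25 FPKM in WT-1 and 4.02 in MUT-3. Sema3g, a secreted semaphorin made by podocytes, ranged from 5.51 FPKM in MUT-3 to 13.0 in WT-1. Thbs1, a secreted matrix glycoprotein, ranged from 15.3 FPKM in MUT-3 to 27.8 in WT-1.

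**Figure D3:**
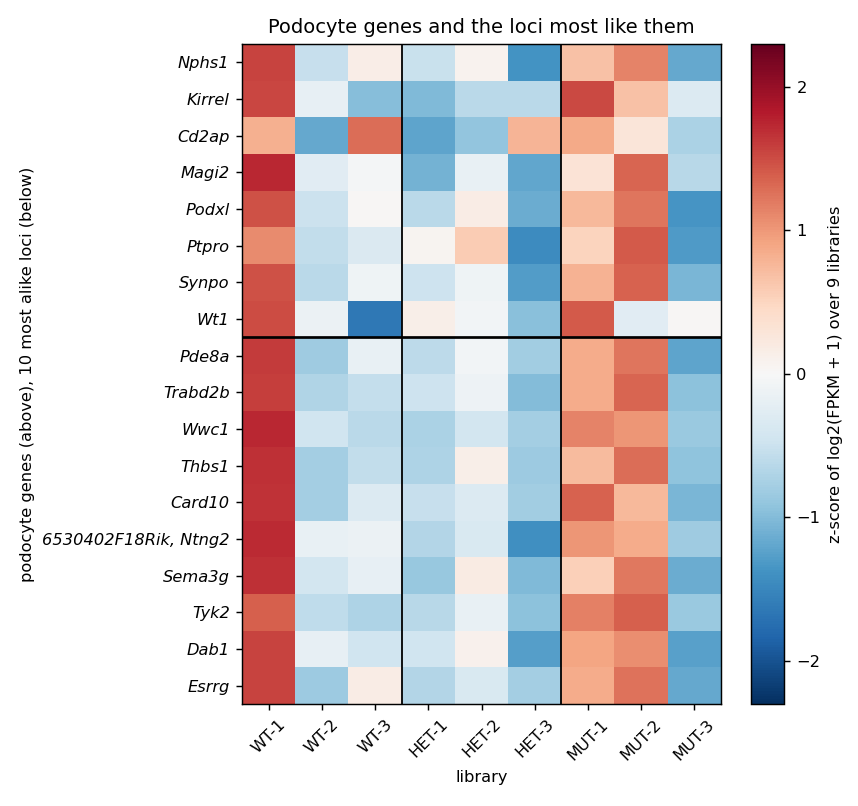
z-scores of log2(FPKM + 1) over the 9 libraries (columns, by genotype) for the 8 podocyte genes, above the line, and the 10 loci most like their mean, below it. WT-1, MUT-1 and MUT-2 are high and HET-3 and MUT-3 low in most rows, and Cd2ap and Wt1 depart from this pattern.

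Another 39 podocyte genes, in lists for the slit diaphragm, apical domain, cytoskeleton, transcription factors, matrix and adhesion, and signals and cell cycle, were measured too. Whether each is particular to podocytes in whole-kidney RNA was not tested. Their r with the mean profile of the 8 genes ran from -0.88 for Pdpn to 0.97 for Sema3g. In MUT against HET kidneys 29 passed the FPKM minimum, of which 21 had a fitted difference above 0 and 8 below, with a median of 0.10 and 0 called. Every MUT library was above every HET library, as in 5.19% of all loci tested, for 4 of the 29, which were Inf2, a formin, Nes, an intermediate filament protein, Col4a5, a chain of glomerular basement membrane collagen, and Efnb2, an ephrin. Efnb2 was 28.1, 27.4 and 25.5 FPKM in the HET kidneys and 40.9, 35.0 and 28.4 in the MUT kidneys, with a log2 difference of 0.34 (s.e. 0.13, limma adjusted p 0.933).

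Against WT kidneys, the fitted difference was above 0 for 21 of 30 tested genes of these lists in MUT kidneys (median 0.05). In HET kidneys it was above 0 for 10 of 30 (median -0.09), with 0 called in either. Every HET library was below every WT library for 2 of the 30, Inf2 and Col4a5, a pattern found in 1.06% of loci. Kirrel2, a paralog of Kirrel that neighbours Nphs1, was 0.133 to 0.257 FPKM.

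Lists for other cell types give the setting in which the podocyte genes varied. The mean log2 difference from the 9-library mean of the 8 podocyte genes was 0.42 in WT-1, 0.31 in MUT-2, 0.25 in MUT-1, -0.29 in MUT-3 and -0.31 in HET-3. Over 8 early nephron genes such as Lhx1 and Jag1, it was 0.32 in WT-1 and 0.29 in MUT-1, but -0.02 in MUT-2. Over 6 proximal tubule genes such as Lrp2, it was lowest in HET-3 (-0.46) and MUT-3 (-0.43), the libraries where the podocyte genes were lowest. But it was highest in WT-3 (0.27), where the podocyte genes were at -0.04, and was -0.06 in MUT-1, where they were at 0.25. Over 6 nephron progenitor genes such as Six2, it was highest in MUT-3 (0.29). Stage differences between embryos were not measured, and the part of these other cell types in the podocyte values was not tested.

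**Figure D4:**
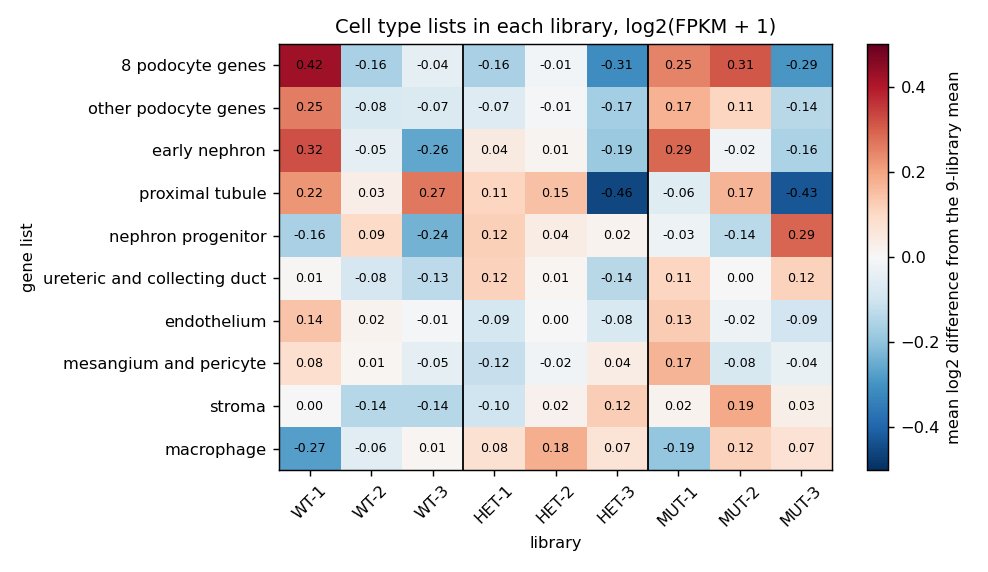
Mean log2 difference of each gene list from its 9-library mean (log2(FPKM + 1) scale, numbers in the cells) for each library. Podocyte genes are high in WT-1, MUT-1 and MUT-2 and low in HET-3 and MUT-3. The proximal tubule list is lowest in HET-3 and MUT-3 and highest in WT-3.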

How the data were processed

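RNA of whole kidneys was made into libraries with a stranded mRNA kit. The authors mapped reads by STAR, built transcripts by Cufflinks and derived the deposited FPKM by Cuffdiff, on mm10 per the submitters' processing notes. Versions and the annotation are not given in the sources used here. The FPKM were used as deposited, and 0 columns belonged to other samples. Starts in the table count from 0 and are given here from 1. For each comparison, loci averaging 5 FPKM or more in either genotype entered a limma fit (version 3.58.1, R 4.3.3) of log2(FPKM + 1) values (lmFit, eBayes with a trend, two-sided, Benjamini-Hochberg, threshold 0.05). Each fit used the 6 libraries of its comparison and the replicate number as a block. The block was chosen because the P values in the study's own tables match a one-sided test pairing same-numbered libraries. The paper does not name the test behind those P values. The labels do not say that a number marks a cross. The steps were tested on simulated data. Genes named are the 8 members, Ntn1, Foxd1, genes of the fixed lists and the 10 loci most alike. Efnb2 and the other list genes given with values, and the examples of loci most alike, were picked after their values were seen. The members and lists were chosen with earlier results of these data known. Figures used Python 3.11.15 and matplotlib 3.10.9. Some genes of the lists are counted but not reported by name here.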

Additional observations from a re-analysis of the deposited data

How the results depend on the processing

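With 3 kidneys per genotype and FPKM only, precision rests on the spread between kidneys, and no counting error is known. In all alternatives run (no replicate block, pseudocounts of 0.1 and 3 FPKM, a minimum of 1 FPKM or none, median-ratio and quantile rescaling, all 9 libraries together, a GC correction, no trend, each number left out, and, chosen after seeing the data, without HET-2 or HET-3), 0 podocyte genes passed, the smallest limma adjusted p being 0.0572. The median for MUT against HET was 0.22 with or without the replicate block, which cannot change it, since every number occurs in every genotype. On average, same-numbered kidneys did not deviate together from their genotype means. The mean r of deviations was -0.13 for MUT against HET, 0.09 for MUT against WT and -0.02 for HET against WT. Single same-numbered pairs ranged from r=-0.32 (MUT-1 with HET-1) to 0.56 (MUT-1 with WT-1). Differently numbered kidneys also reached r=0.49 (MUT-3 with WT-2) and -0.55 (MUT-3 with WT-1). The numbers are therefore not shown to pair kidneys. The block moved the loci at an unadjusted limma p under 0.05 from 636 to 494 in MUT against HET. They moved from 65 to 201 in MUT against WT and from 108 to 233 in HET against WT. With a number left out, limma called 30 to 148, 1 to 168 and 1 to 125 loci, from 2 kidneys against 2.

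Some directions of single genes turned, none of them called. With a GC correction, Synpo in MUT against WT was -0.016. Over fits leaving out kidneys, MUT against HET ranged from -0.038 to 0.38 for Cd2ap and from -0.046 to 0.36 for Ptpro. MUT against WT ranged from -0.35 to 0.28 for Synpo, -0.31 to 0.28 for Ptpro, -0.34 to 0.16 for Podxl, -0.55 to 0.20 for Nphs1, -0.021 to 0.15 for Wt1 and -0.23 to 0.17 for Cd2ap. HET against WT ranged from -0.12 to 0.072 for Wt1 and from -0.43 to 0.10 for Ptpro, with Wt1 at 0.024 and Ptpro at 0.10 without HET-3 and Ptpro at 0.026 without the kidneys numbered 3. The cause was not tested.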
